A study of Mus musculus with 13 samples.

Results

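The comparison described here set Nestin-GFP-positive cells sorted on day 8 (D8) of a chemical conversion of mouse embryonic fibroblasts against Nestin-GFP-positive cells sorted on day 4 (D4), with 1 RNA-seq library a side. It covers 2 of the 13 samples of the series. The genes compared were those with 5 CPM (estimated counts per 1000000 estimated counts of the library) or more in either library, which were 11106 of the 30332 genes of the table. Both libraries came from passage 3 fibroblasts of Nestin::GFP transgenic mice, which carry a green fluorescent protein driven by Nestin sequences, and both had been treated with VCR, the cocktail of valproic acid, CHIR99021 and RepSox.

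Valproic acid inhibits histone deacetylases, CHIR99021 inhibits the kinase GSK3 and so activates Wnt signalling, and RepSox inhibits the TGF-beta receptor ALK5. The study asked how this cocktail converts fibroblasts into neural stem cells. Per the labels, the medium with the cocktail was renewed every 4 days. They tie neither library to 1 of the several media or oxygen levels they list. The series also holds GFP-negative libraries of D8 and D4, unsorted fibroblasts at D0 (untreated), D1 and D2 of the cocktail, sorted neural stem cells (NSC) and GFP-positive cells made with growth factors (GF), each as 1 library.

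A GFP reporter of this kind selects cells by the activity of a Nestin element, which is used by neural stem cells and also by Schwann cell precursors and other cell types. Neural crest cells and the Schwann cells they give rise to express Sox10, Erbb3 and Foxd3. ATF4 is a transcription factor whose translation rises when amino acids are short or the integrated stress response is active. Its targets include amino acid synthesis enzymes, amino acid transporters, aminoacyl-tRNA synthetases and the pseudokinase Trib3, which dampens the response.

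The D8 library held 28870255 estimated counts and the D4 library 34804212. A count of 3 was worth 0.104 CPM at D8 and 0.0862 CPM at D4. Every group was a single library, so no p-value or replicate error could be given. Folds are ratios of CPM, and the 95% intervals in parentheses are exact conditional binomial intervals that cover counting error only. In a bulk library, fewer cells of a type and less RNA per cell cannot be told apart.

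The sort label was checked against the reporter's own gene. Nes, which encodes the intermediate filament nestin, stood at 721 CPM at D8 and 784 CPM at D4 in the GFP-positive libraries, and at 32.2 and 25.9 CPM in the GFP-negative libraries of the same days. The 8 neural crest and Schwann markers summed to 2738 CPM in GFP-positive cells at D8 and 2400 CPM at D4, against 21.9 CPM in D0 fibroblasts. Of these markers, 7 reached 5 CPM on both days. The 7 neural stem and progenitor markers summed to 877 CPM at D8 and 902 CPM at D4, and 3 of them reached 5 CPM on each day, whereas all 7 did so in the NSC library. Nes is among these 7 and gave 721 and 784 CPM of those sums, so they mostly restate the gene behind the sort. The source label calls these cells embryonic fibroblasts, and the 7 fibroblast markers summed to 1089 CPM at D8 and 1388 CPM at D4, against 11458 CPM at D0.

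Markers of other cell types were also summed. The 5 macrophage markers summed to 137 CPM at D8 and 243 CPM at D4 in the GFP-positive libraries. Of these markers, 2 reached 5 CPM on each day and none was at 0. Lyz2 alone gave 83.5 CPM of the sum at D8 and 185 CPM at D4, so the lower sum at D8 is mostly that 1 gene. Endothelial markers summed to 4.29 CPM at D8 and 6.11 CPM at D4, with 1 marker at 0 at D8. Melanocyte markers summed to 4.42 CPM at D8 and 4.66 CPM at D4, with 1 at 0 on each day. Keratinocyte and epithelial markers summed to 0.554 CPM at D8 and 0.201 CPM at D4. Of 3 skeletal muscle markers, Myod1 and Myog were at 0 on both days.

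Most genes stood close to their D4 level at D8. The differences of log2(CPM + 1), D8 minus D4, had a median of -0.09 over the 11106 genes compared, and the 5th and 95th percentiles were -0.67 and 0.53. Within 1.5-fold lay 9866 genes (88.8%). The call required a difference of 1 (2-fold) on that scale, by which 142 genes (1.28%) rose and 166 genes (1.49%) fell, 308 (2.77%) in all. Scaling by median ratio size factors instead of library totals gave 177 genes higher and 124 lower. At a 4-fold difference, 16 genes (0.144%) were higher and 8 (0.072%) lower. At the edge of the call, Cxcl15 lay just inside at 1.00, with 6.52 CPM at D8 and 2.75 CPM at D4, and S100a4 just outside at 0.996, with 7.59 and 3.30 CPM. On the lower side Ednra lay just inside at -1.00134 and Ppargc1a just outside at -0.998685.

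**Figure D1:**
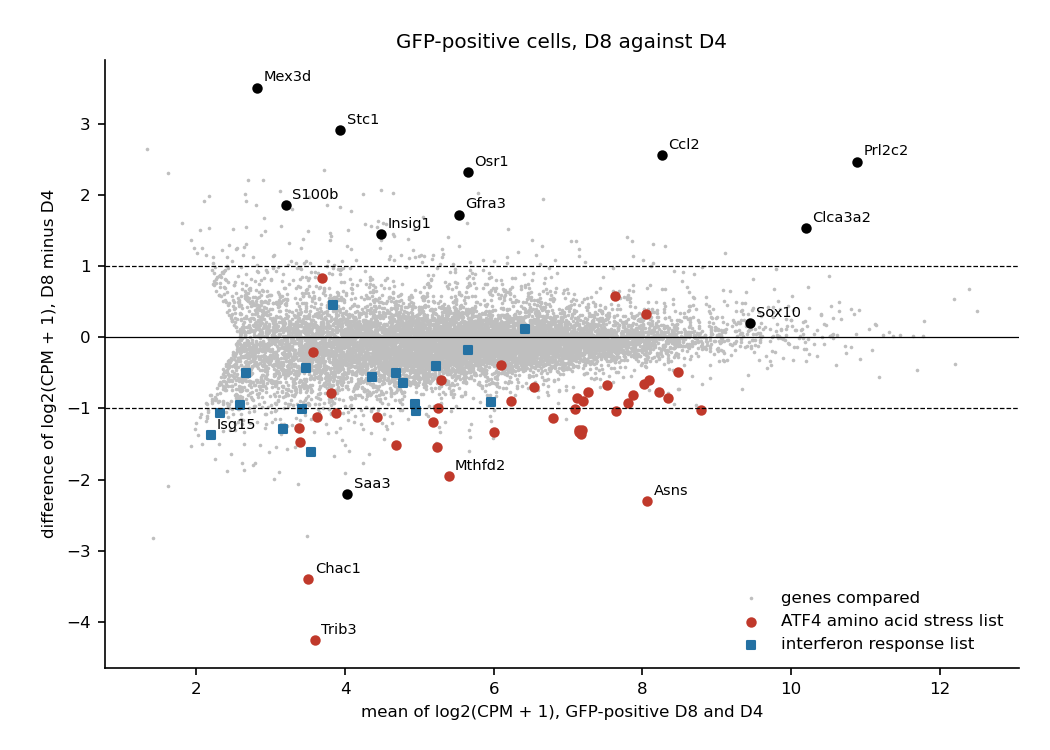
Difference of log2(CPM + 1), D8 minus D4, against the mean of log2(CPM + 1) of the 2 GFP-positive libraries, 1 point a gene over the 11106 genes compared; dashed lines mark a 2-fold difference. The ATF4 list (red) lies mostly below 0 at all levels, with Trib3 at -4.26 and Chac1 at -3.40, and the highest point is Mex3d at 3.51.

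Of the gene lists examined, that of the ATF4 response to amino acid shortage had the most members lower at D8. Of 45 genes on that list, 42 were compared, 21 fell and 0 rose, where 1.49% of all genes compared fell. Their median difference was -1.002, and 39 of the 42 lay below 0. The other 3, Atf5, Cth and Fgf21, were under 5 CPM in both libraries. In GFP-negative cells 43 members were compared, 9 fell and 1 rose between D8 and D4, and the median was -0.51. Over all genes compared there, 1.47% fell and 3.68% rose.

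Promoter sequence was examined for this list because ATF4, paired with a C/EBP protein, binds elements with the core TGATGNAA. The core was searched on both strands in the 250 bases before each gene's start, in promoter sequences of RefSeq on the build GRCm38.p6. It occurred in 1056 of all 27025 promoters (3.91%), in 201 of the 8619 promoters of genes compared (2.33%), in 14 of the 133 of genes lower at D8 (10.5%) and in 4 of the 96 of genes higher at D8 (4.17%). In the ATF4 list it was found in 8 of 18 promoters of genes that fell (Asns, Chac1, Slc7a11, Nupr1, Vldlr, Pck2, Pycr1 and Aars), and in 2 of 16 of members compared but not called (Gars and Tars). Without the ATF4 list, 6 of 115 promoters of genes that fell held it (5.22%). A match is a description of the letters, and binding was not measured here. The motif was chosen after the calls were seen.

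Shown here are Asns and Chac1, which had among the largest falls of the list, over the whole 250 bases, and stretches around the match in Nupr1, Pycr1 and Aars, whose matches extend to the longer form TGATGCAAT, found in 52 of 27025 promoters (0.192%). They lie at chr6:7693210-7693459 (Asns, minus strand), chr2:119350992-119351241 (Chac1, plus strand), chr7:126625528-126625625 (Nupr1, minus strand), chr11:120643799-120643896 (Pycr1, minus strand) and chr8:111033685-111033782 (Aars, plus strand). Each is written 5′ to 3′ on the gene's own strand, and capitals mark the match to TGATGNAA or to its reverse complement.
Asns: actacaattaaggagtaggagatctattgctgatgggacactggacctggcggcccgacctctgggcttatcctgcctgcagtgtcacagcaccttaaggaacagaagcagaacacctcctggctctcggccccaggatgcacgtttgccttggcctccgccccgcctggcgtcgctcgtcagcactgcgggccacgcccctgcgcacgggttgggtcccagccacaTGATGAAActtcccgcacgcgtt
Chac1: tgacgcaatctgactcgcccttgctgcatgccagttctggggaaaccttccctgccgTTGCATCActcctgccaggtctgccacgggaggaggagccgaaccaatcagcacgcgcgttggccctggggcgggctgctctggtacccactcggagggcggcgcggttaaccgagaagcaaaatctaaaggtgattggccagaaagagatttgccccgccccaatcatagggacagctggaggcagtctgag
Nupr1: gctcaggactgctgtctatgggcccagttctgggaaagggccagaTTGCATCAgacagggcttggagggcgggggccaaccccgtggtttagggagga
Pycr1: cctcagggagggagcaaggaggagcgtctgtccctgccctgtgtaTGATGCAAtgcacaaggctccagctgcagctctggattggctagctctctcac
Aars: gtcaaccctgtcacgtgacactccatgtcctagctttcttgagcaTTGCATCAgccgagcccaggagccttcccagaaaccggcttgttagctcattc
The match in Asns began 23 bases before the gene's start, and the other 4 began between 103 and 193 bases before it. For Aars, and likewise for Ifit3, the start in the promoter table lies inside the gene's annotated span.

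Trib3, at chr2:152337425-152344060, fell furthest of all genes compared on the log2(CPM + 1) scale, with a difference of -4.26. It had 1.77 CPM at D8 and 51.8 CPM at D4, a level 29.3-fold lower (22.2 to 39.6). In GFP-negative cells it had 1.96 CPM at D8 and 32.6 CPM at D4. Untreated D0 fibroblasts had 127.8 CPM of Trib3, D1 cells 13.9 CPM and D2 cells 22.3 CPM, so that both D8 fractions were below every other library of the series, NSC (7.31 CPM) and GF (8.26 CPM) included. Chac1, which degrades glutathione, had 2.49 CPM at D8 and 35.97 CPM at D4 and was 14.4-fold lower (11.4 to 18.6). In GFP-negative cells Chac1 stood at 8.85 CPM at D8 and 32.7 CPM at D4.

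Among the regulators of the list, 3 of 5 compared fell. Atf4 itself had 94.9 CPM at D8 and 192.1 CPM at D4, a difference of -1.01, and was no longer 2-fold lower with median ratio size factors, at -0.93. Ddit3, which encodes the stress factor CHOP, had 14.3 CPM at D8 and 42.4 CPM at D4, a 2.97-fold lower level (2.66 to 3.32). Nupr1, a stress-induced chromatin protein, had 5.72 CPM at D8 and 15.2 CPM at D4. The C/EBP factors were not called: Cebpb, a partner of ATF4, had 297 CPM at D8 and 236 CPM at D4, and Cebpg 59.1 and 77.5 CPM. Of the 7 feedback and effector genes compared, Trib3, Chac1 and Vldlr fell, while Ddit4, an inhibitor of mTOR signalling, stood at 16.2 CPM at D8 and 8.65 CPM at D4 without being called.

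Enzymes of amino acid and one-carbon synthesis fell most widely, with 9 of 11 compared lower and all 11 below 0. Asns, asparagine synthetase, at chr6:7675165-7693209, had 119.5 CPM at D8 and 594 CPM at D4, a 4.97-fold lower level (4.80 to 5.16). Its level was 292, 452 and 464 CPM at D0, D1 and D2, and 131 CPM at D8 against 371 CPM at D4 in GFP-negative cells. The D4 GFP-positive library thus held the highest Asns level of the 9 libraries. Mthfd2, the mitochondrial folate enzyme, had 20.4 CPM at D8 and 81.7 CPM at D4 and was 4.002-fold lower (3.66 to 4.38).

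All 3 enzymes of serine synthesis fell. In the order of the pathway they are Phgdh, with 89.2 CPM at D8 and 221 CPM at D4, Psat1, with 91.6 and 227 CPM, and Psph, with 23.03 and 53.6 CPM. Shmt2, which turns serine into glycine in mitochondria, had 73.7 CPM at D8 and 163.5 CPM at D4. In the proline pathway, Aldh18a1 had 88.7 CPM at D8 and 225 CPM at D4, and Pycr1 9.20 and 20.2 CPM, which fell short of 2-fold at -0.98 with median ratio size factors. Pck2, mitochondrial phosphoenolpyruvate carboxykinase, had 21.1 CPM at D8 and 63.6 CPM at D4.

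Transporters and tRNA synthetases showed smaller differences. Of 7 transporters compared, 3 fell. They were Slc7a11, the cystine carrier, with 7.34 CPM at D8 and 17.1 CPM at D4, Slc7a5, the large neutral amino acid carrier, with 39.4 and 101 CPM, and Slc1a4, a carrier of alanine, serine and cysteine, with 5.30 and 16.5 CPM. Slc38a2, a sodium-coupled carrier, went the other way without being called, at 243 CPM at D8 and 161 CPM at D4, and in GFP-negative cells it rose, at 292 CPM at D8 against 140 CPM at D4. Of the 12 synthetases on the list, all were compared, all were below 0 and 3 fell: Cars with 89.4 CPM at D8 and 231 CPM at D4, Mars with 139 and 285 CPM, and Aars with 310.0 and 630 CPM. Mars and Aars were below 2-fold with median ratio size factors, at -0.95 and -0.94. Over all 20 cytosolic synthetases the median difference was -0.64 with 18 below 0, against -0.21 over the 17 mitochondrial ones, of which 0 were called. Over all genes compared, 2.77% were called either way. Mars overlaps the end of Ddit3 on chromosome 10, and no source used here says whether strand was used in counting.

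**Figure D2:**
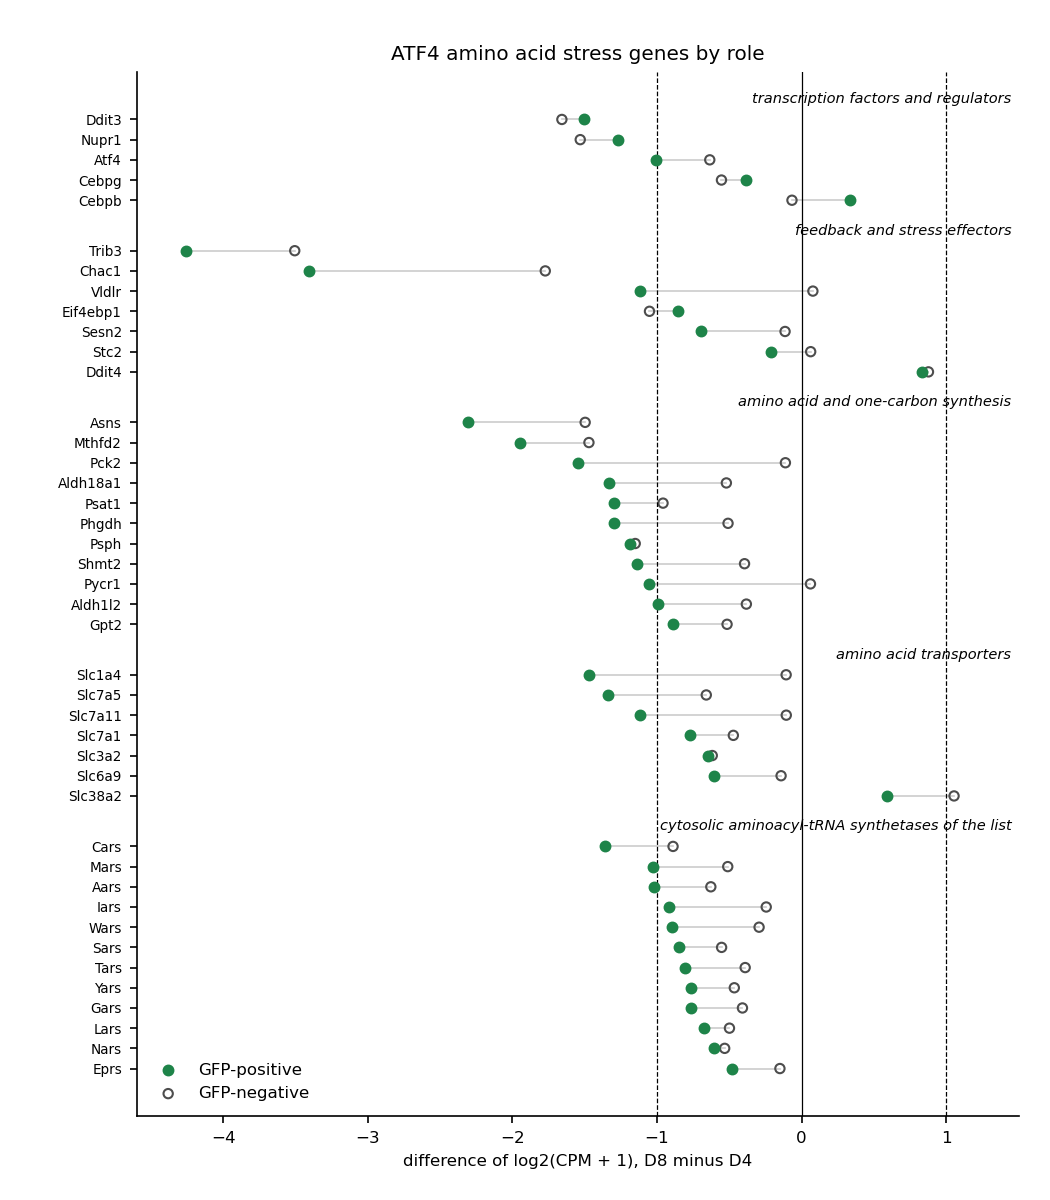
Difference of log2(CPM + 1), D8 minus D4, for the 42 compared members of the ATF4 list, grouped by role; filled points are GFP-positive and open points GFP-negative cells, 1 library a day each. Synthesis enzymes and tRNA synthetases lie below 0 throughout in GFP-positive cells, and dashed lines mark a 2-fold difference.

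Lists of other stress programmes had few or no calls. Over all genes compared, 2.77% were called either way. At that share, lists of this size hold few calls or none, so the counts do not set them apart. The list of unfolded protein response genes, which covers chaperones and degradation factors of the endoplasmic reticulum, had 0 of 22 compared members called, a median of -0.06 and 13 below 0, and that median was 0.02 with median ratio size factors. Hspa5, its main chaperone, stood at 751 CPM at D8 and 946 CPM at D4, and the splicing-activated factor Xbp1 at 182 and 232 CPM. None of 15 heat shock genes, 18 p53 targets or 20 hypoxia and glycolysis genes compared was called. Of 14 compared targets of NRF2, the oxidative stress factor, 1 fell (Slc7a11, also on the ATF4 list) and 11 lay below 0, with a median of -0.26. The 13 mitochondrially encoded transcripts were also not called, although all 13 were above 0, with a median of 0.40.

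Interferon-stimulated genes formed the next group to fall. Of 30 on the list, 18 were compared, 6 fell and 0 rose, where 1.49% of all genes compared fell. The median was -0.77 and 16 lay below 0. The other 12 genes of the list were under 5 CPM in both libraries. Usp18, a protease that removes ISG15 and limits interferon signalling, had 5.61 CPM at D8 and 19.3 CPM at D4, a 3.44-fold lower level (2.89 to 4.11). Isg15, the ubiquitin-like modifier, had 1.84 CPM at D8 and 6.38 CPM at D4. Xaf1, a proapoptotic interferon target, had 4.74 CPM at D8 and 12.99 CPM at D4. In all 3 the GFP-negative cells also fell, to 6.34, 2.13 and 4.41 CPM at D8, against 14.4, 6.47 and 10.6 CPM at D4.

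The remaining calls were close to the threshold. Ddx58, the RNA sensor RIG-I, had 20.7 CPM at D8 and 43.3 CPM at D4, Ifit3 6.52 and 14.2 CPM, and Psmb9, an immunoproteasome subunit, 2.47 and 6.21 CPM. All 3 lost the call with median ratio size factors, at -0.95, -0.94 and -0.99. With a pseudocount of 5 CPM 1 of the 6 kept it. Isg15 had its highest level of the series in the GF library, at 633 CPM.

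The core of the interferon-stimulated response element, which is GAAA, any 2 bases and GAAA again, also chosen after the calls were seen and searched on both strands, occurred in 936 of 27025 promoters (3.46%) and in 6 of the 13 promoters of compared interferon genes in the table (Isg15, Ifit1, Ifit3, Bst2, Stat2 and Gbp3). These were 2 of 5 members that fell and 4 of 8 that were not called, and over all genes 8 of 133 lower (6.02%) and 6 of 96 higher (6.25%) held it. Stretches of the 2 that fell are shown, with matches or their reverse complements in capitals, from chr4:156200830-156200941 (Isg15, minus strand) and chr19:34583328-34583461 (Ifit3, plus strand). Isg15 holds 3 matches that overlap one another, and Ifit3 holds 2.
Isg15: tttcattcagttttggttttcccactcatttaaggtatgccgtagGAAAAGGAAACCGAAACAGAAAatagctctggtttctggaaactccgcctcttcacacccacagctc
Ifit3: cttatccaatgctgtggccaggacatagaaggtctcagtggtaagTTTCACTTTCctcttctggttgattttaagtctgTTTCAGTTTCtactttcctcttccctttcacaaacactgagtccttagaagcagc

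Some macrophage transcripts fell as well. Of 17 macrophage genes, 9 were compared, 3 fell and 0 rose, with 3 above 0 and a median of -0.09, the same as over all genes. Over all genes compared, 1.49% fell. Lyz2, lysozyme, had 83.5 CPM at D8 and 185 CPM at D4, and the complement genes C1qb and C1qc had 2.94 and 2.25 CPM at D8 against 8.88 and 10.8 CPM at D4. The chemokines Ccl3 and Ccl4, neighbours on chromosome 11 whose annotated spans overlap, had 9.28 and 5.02 CPM at D8 against 20.9 and 13.3 CPM at D4. Cd68, a lysosomal protein of macrophages, was not called, at 44.96 CPM at D8 and 47.8 CPM at D4, and Mmp12, macrophage elastase, rose, with 140 CPM at D8 and 68.1 CPM at D4. The summed macrophage level was 18.6 CPM at D8 and 25.7 CPM at D4 in GFP-negative cells. The part of these cells in the interferon and chemokine differences was not tested.

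**Figure D3:**
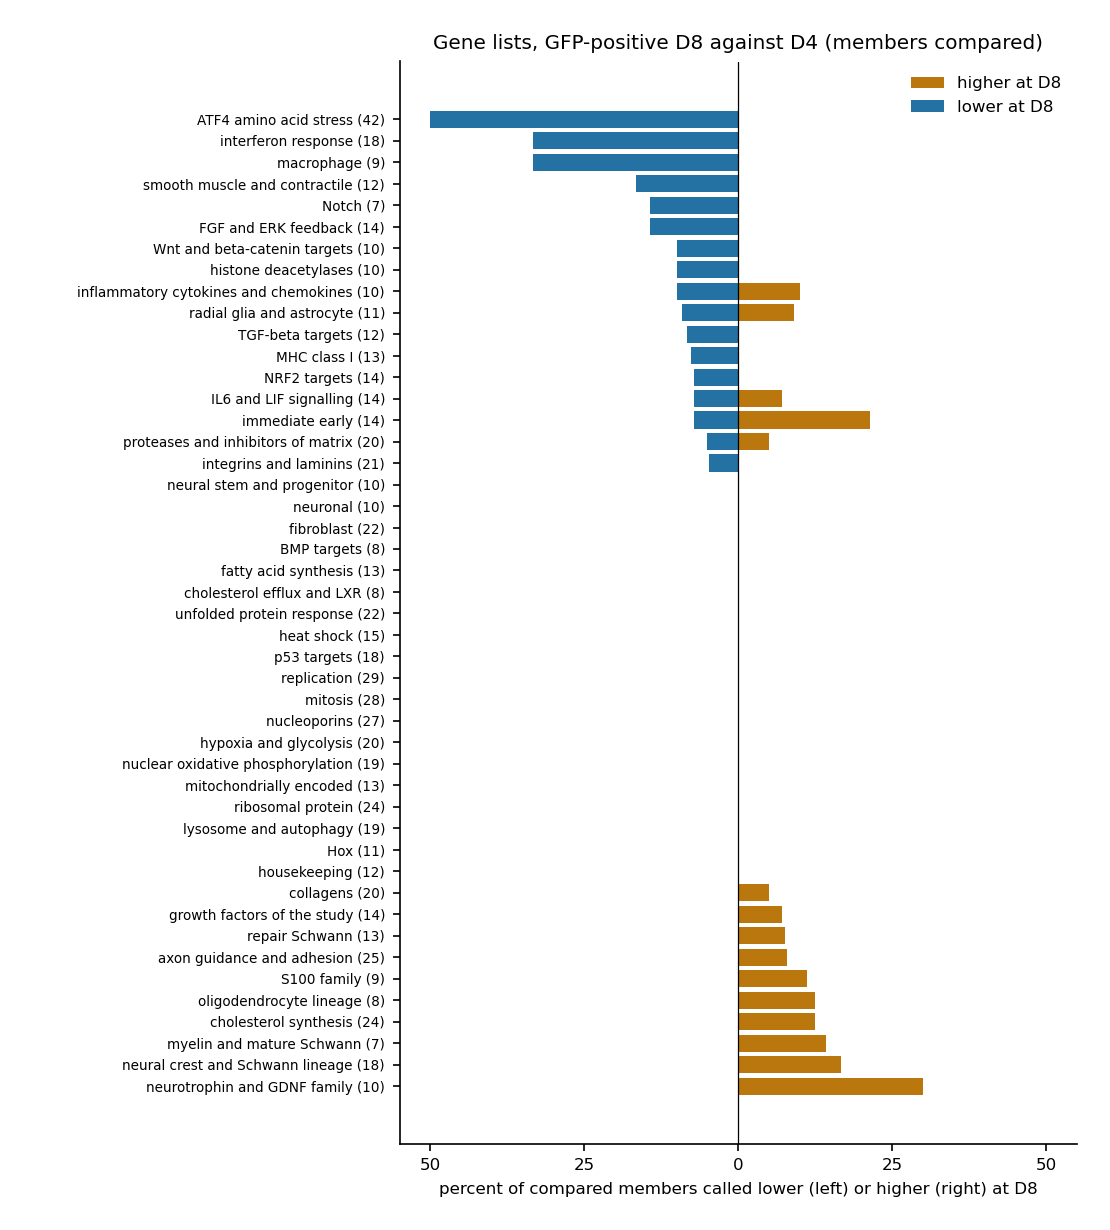
Percent of compared members called lower (left) or higher (right) at D8 in GFP-positive cells, for those of the 54 gene lists (the 9 further lists are left out) with 7 or more members compared, with that number in parentheses. Over all genes compared, 1.49% fell and 1.28% rose; the ATF4 list has the longest bar to the left, with 21 of 42, and the neurotrophin and GDNF list the longest to the right, with 3 of 10.

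Genes of the Schwann lineage that rose were a receptor, a glial marker and an adhesion gene, while the defining factors were not called. Of 22 genes on the neural crest and Schwann list, 18 were compared, 3 rose and 0 fell, with a median of 0.22 and 14 above 0. Over all genes compared, 1.28% rose. Of the 3, Gfra3 and S100b had been given in advance as markers for this comparison, so the count is not independent of that choice. Gfra3, the receptor of artemin, had 83.5 CPM at D8 and 24.5 CPM at D4, a 3.41-fold higher level (3.15 to 3.69). It was under 5 CPM in the other 7 libraries, with 4.59 CPM at D8 and 1.76 CPM at D4 in GFP-negative cells, 0.0995 CPM in NSC and 0 in GF. S100b, a calcium-binding protein of glia, had 16.5 CPM at D8 and 3.82 CPM at D4, a 4.32-fold higher level (3.56 to 5.28). S100b stood at 20.5 CPM in the NSC library and 3.57 CPM at D8 in GFP-negative cells. Cadm4, an adhesion molecule of myelinating Schwann cells, had 47.3 CPM at D8 and 20.7 CPM at D4.

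The factors that define the lineage were at similar CPM on both days. Sox10 had 748 CPM at D8 and 652 CPM at D4, Erbb3, the neuregulin receptor, 401 and 385 CPM, and Foxd3 111 and 109 CPM. Sox10 in GFP-negative cells was at 14.3 CPM at D8 and 9.11 CPM at D4. Of the myelin list, 7 of 17 were compared, and Gal3st1, which makes the myelin lipid sulfatide, rose with 9.04 CPM at D8 and 3.56 CPM at D4. Olig1, an oligodendrocyte lineage factor, had 21.5 CPM at D8 and 7.67 CPM at D4, and 395 CPM in NSC.

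Neurotrophin receptors rose beside Gfra3. Of 17 members of the neurotrophin and GDNF families, 10 were compared, 3 rose and 0 fell, with a median of 0.59. Over all genes compared, 1.28% rose, and Gfra3 is counted in the Schwann list too. In GFP-negative cells 3 of 7 compared members of the families rose, with a median of 0.86. Over all genes compared there, 3.68% rose. Ntrk3, the receptor of neurotrophin 3, had 12.4 CPM at D8 and 3.19 CPM at D4, a 3.88-fold higher level (3.13 to 4.84). Ntrk2, the receptor of BDNF, had 13.5 CPM at D8 and 6.05 CPM at D4. Ngfr, the low-affinity neurotrophin receptor, was not called, with 201 CPM at D8 and 167 CPM at D4. Ret, the signalling partner of the GFRA receptors, had 3 estimated counts at D8 and 12 at D4.

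**Figure D4:**
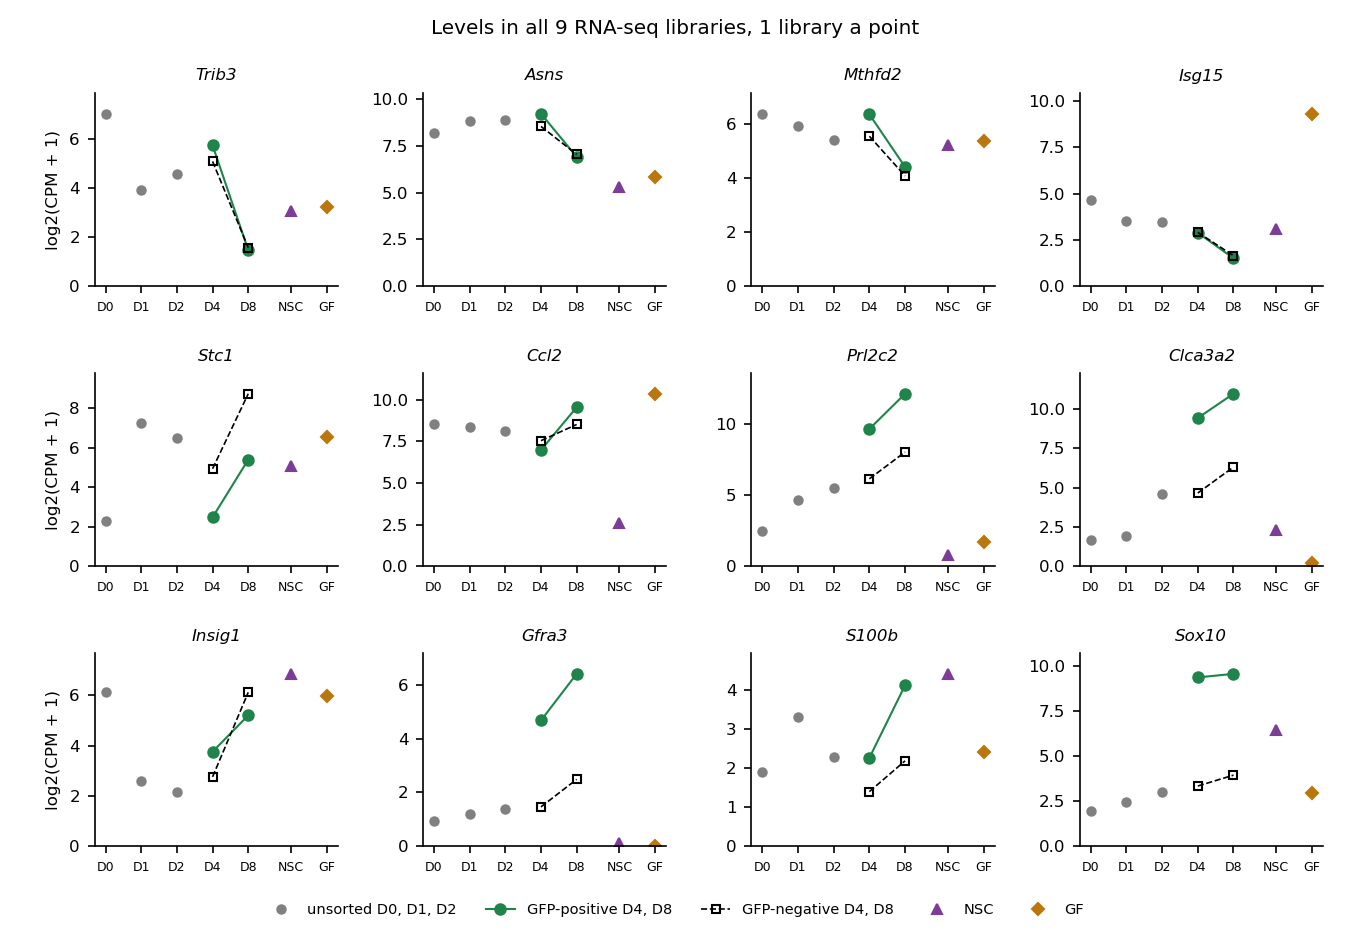
Levels of 12 genes as log2(CPM + 1) in all 9 RNA-seq libraries, 1 point a library, with an own scale in each panel. Trib3, Asns and Mthfd2 lie lower at D8 than at D4 in both sorted fractions, Gfra3 reaches 83.5 CPM in GFP-positive cells at D8, and Sox10 lies in the GFP-positive libraries at 748 CPM (D8) and 652 CPM (D4).

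Several genes of synapses rose, and they are named here after their values were seen, with the other members of 2 small families. Of the synaptic vesicle proteins, Sv2b had 219.5 CPM at D8 and 85.0 CPM at D4, and Sv2c 24.8 and 11.1 CPM, with Sv2a under 5 CPM. Of the AMPA receptor subunits, Gria1 rose, with 27.7 CPM at D8 and 7.07 CPM at D4, Gria3 and Gria4 were not called, and Gria2 was under 5 CPM. Gad2, which makes the transmitter GABA, had 59.4 CPM at D8 and 24.6 CPM at D4. Sez6l, a brain membrane protein, had 45.03 CPM at D8 and 9.88 CPM at D4, a 4.56-fold higher level (4.04 to 5.15). The further list that holds these genes (neurexins, synaptic vesicle and glutamate receptor) had 9 of 15 compared members higher, with a median of 1.09. It was chosen with earlier results of these data known, so this count is not independent of the values above. The 9 include Gad2, Sez6l, Vgf and Pcsk1n, which the name of the list does not cover. In GFP-negative cells 4 of its 8 compared members were higher at D8, with a median of 1.03. Over all genes compared, 1.28% rose in GFP-positive and 3.68% in GFP-negative cells. The list of general neuronal markers had 0 of 10 compared members called in GFP-positive cells, where 2.77% of all genes compared were called either way.

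Among genes at 20 CPM or more, Stc1 had the highest difference after Mex3d. It encodes stanniocalcin 1, an inhibitor of the protease PAPP-A. It had 41.2 CPM at D8 and 4.57 CPM at D4, a 9.01-fold higher level (7.63 to 10.7), and 425 CPM at D8 against 29.7 CPM at D4 in GFP-negative cells. Pappa, the protease that frees insulin-like growth factors from their binding proteins, also rose, with 121 CPM at D8 and 51.8 CPM at D4. The binding protein genes Igfbp2 and Igfbp4 rose to 156 and 48.6 CPM at D8, against 63.2 and 21.5 CPM at D4. These 4 genes belong to a further list, chosen with earlier results of these data known. Its other 6 compared members were not called, where 1.28% of all genes compared rose.

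The chemokine Ccl2, which attracts monocytes, had 746 CPM at D8 and 125 CPM at D4, a 5.97-fold higher level (5.78 to 6.17). In GFP-negative cells Ccl2 had 364 CPM at D8 and 185 CPM at D4. Socs3, the feedback inhibitor of IL6-type cytokines, rose with 371 CPM at D8 and 144.5 CPM at D4, whereas the acute phase gene Saa3 fell, with 6.62 CPM at D8 and 34.1 CPM at D4, a 5.16-fold lower level (4.42 to 6.04). Aldh1a2, which makes retinoic acid, had 494 CPM at D8 and 201 CPM at D4.

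Members of a pair of gene clusters rose together. Both family lists were chosen with earlier results of these data known. All 4 prolactin-like Prl2c genes of the table were higher at D8, and 3 of them (Prl2c3, Prl2c2 and Prl2c5) lay near one another on chromosome 13. Prl2c2, which encodes proliferin, at chr13:12996120-13005393, had 4473 CPM at D8 and 805 CPM at D4, a 5.56-fold higher level (5.49 to 5.63), and 4.51 CPM in D0 fibroblasts. Prl2c3 had 111 CPM at D8 and 26.3 CPM at D4, Prl2c5 44.6 and 19.8 CPM, and Prl2c1 12.9 and 1.99 CPM. On chromosome 3, 3 of the 5 compared Clca genes rose, where 1.28% of all genes compared rose. Clca3a2, a secreted protein of the calcium-activated chloride channel regulators, had 2007 CPM at D8 and 690.0 CPM at D4, against 78.3 and 24.2 CPM in GFP-negative cells. Clca4a had 104 CPM at D8 and 28.2 CPM at D4, and Clca4b 39.7 and 12.5 CPM. Both families hold paralogs, and their single values are uncertain where reads fitted more than 1 gene.

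Transcription factors were among the genes that moved furthest. Osr1, a zinc finger factor of intermediate mesoderm, had 111 CPM at D8 and 21.4 CPM at D4, a 5.19-fold higher level (4.79 to 5.63), and was not called in GFP-negative cells, at 92.8 CPM at D8 and 121 CPM at D4. Six2, a homeobox factor of kidney progenitors, had 37.1 CPM at D8 and 8.44 CPM at D4. Etv5, an ETS factor induced by FGF signalling, fell to 7.10 CPM at D8, against 24.8 CPM at D4. Spry1, a feedback inhibitor of the same pathway, had 23.8 CPM at D8 and 58.4 CPM at D4. In the FGF and ERK feedback list 2 of 14 compared genes fell and 0 rose, with a median of -0.53 and 12 below 0. Over all genes compared, 1.49% fell.

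Immediate early genes did not move one way. Fos rose, with 838 CPM at D8 and 368 CPM at D4, and so did Fosb (5.72 and 2.24 CPM) and Zfp36, which destabilises cytokine transcripts (146 and 56.2 CPM). Nr4a1, an orphan nuclear receptor, fell, with 28.1 CPM at D8 and 87.3 CPM at D4. Myc, also a Wnt target, had 37.8 CPM at D8 and 103 CPM at D4. Jag1, a Notch ligand, fell to 3.12 CPM at D8, against 15.4 CPM at D4, and Ctgf, a target of TGF-beta and YAP, to 10.3 CPM, against 34.3 CPM.

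Sterol genes rose in part. Of 25 genes of cholesterol synthesis and uptake, 24 were compared, 3 rose and 0 fell, with a median of 0.45 and 22 above 0. Over all genes compared, 1.28% rose. Insig1, which retains the sterol sensor, had 35.99 CPM at D8 and 12.6 CPM at D4, a 2.87-fold higher level (2.56 to 3.21), and the synthesis enzyme Msmo1 210.4 and 94.7 CPM. Sqle, squalene epoxidase, was not called, with 150.2 CPM at D8 and 97.001 CPM at D4. In GFP-negative cells, where 3.68% of all genes compared rose, 17 of 24 members of the same list were higher at D8. The list had a median of 1.41 there. Insig1 stood there at 68.7 CPM at D8 and 5.78 CPM at D4. D0 fibroblasts had 69.5 CPM of Insig1, and D1 and D2 cells 4.99 and 3.50 CPM.

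Among factors the study centres on, none of Sox2, Fgf5, Lif, Nup210 and Il6 was both compared and called. In the list of the study's growth factors, 14 genes were compared, 1 rose (Tgfa) and 0 fell. Over all genes compared, 1.28% rose and 1.49% fell. Sox2 had 130 CPM at D8 and 84.0 CPM at D4, Fgf5 391 and 454 CPM, and Lif 48.3 and 38.6 CPM. Nup210, a nuclear pore protein, had 0.831 CPM at D8 and 1.41 CPM at D4, against 47.3 CPM in NSC, and Il6 had 0.485 CPM at D8 and 1.55 CPM at D4. Both were under 5 CPM and so not compared. The lists of neural stem and progenitor genes (10 compared), fibroblast genes (22), mitosis (28), DNA replication (29), nucleoporins (27) and ribosomal proteins (24) had 0 called. Over all genes compared, 2.77% were called either way, and at that share lists of this size hold few calls or none. Replication genes lay mostly below 0, at 25 of 29, with a median of -0.26. The smooth muscle genes Acta2 and Des fell, with 40.6 and 4.23 CPM at D8 against 93.3 and 10.1 CPM at D4.

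GFP-negative cells of the same days gave a comparison that shares no library with this one, although the labels do not say whether both fractions of a day came from 1 culture. There, 397 of 10790 genes compared (3.68%) rose and 159 (1.47%) fell. Over the 10262 genes compared in both fractions the differences had a Pearson correlation of 0.47 and a Spearman correlation of 0.44, across genes, which are not independent replicates. Of the 142 genes that rose in GFP-positive cells, 76 were compared in GFP-negative cells, and 45 of them rose there (59.2%) and 1 fell. Of the 166 that fell, 134 were compared there, and 28 fell (20.9%) and 1 rose. The median GFP-negative difference was 1.08 for the first set and -0.53 for the second, against 0.03 over all genes. Whether an individual difference is larger in 1 fraction was not tested, since each is a single pair of libraries.

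**Figure D5:**
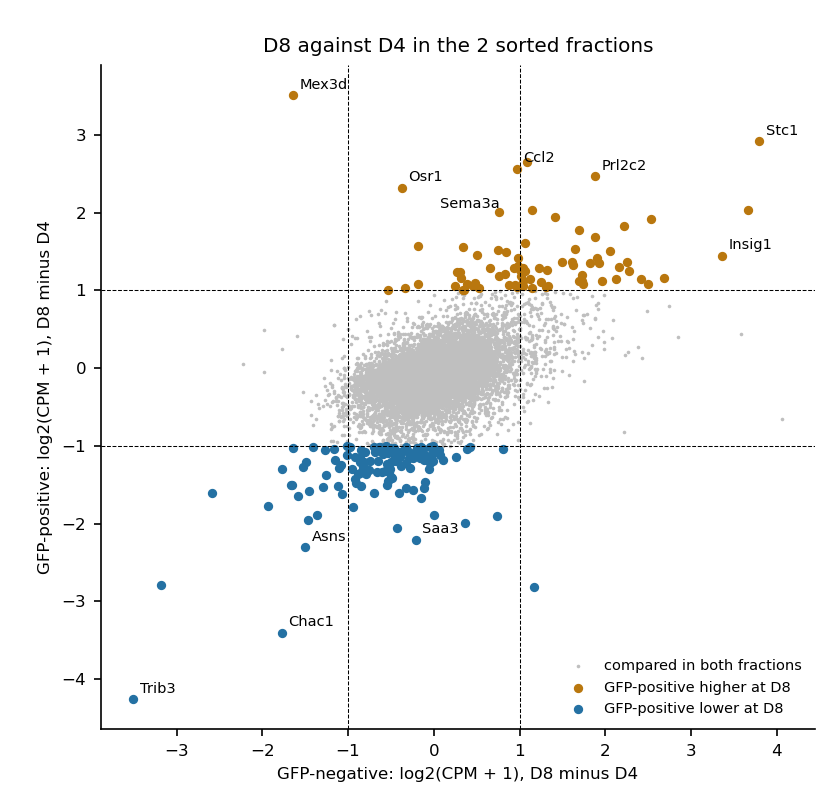
Difference of log2(CPM + 1), D8 minus D4, in GFP-positive cells (vertical) against GFP-negative cells (horizontal), 1 point a gene over the 10262 genes compared in both; dashed lines mark 2-fold. Of the genes that rose in GFP-positive cells (orange), 45 of 76 also rose in GFP-negative cells, and Mex3d lies alone at the upper left.

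Set beside the difference between neural stem cells and untreated fibroblasts, the genes that moved showed no single direction. Of the 142 genes that rose, 68 (47.9%) were 2-fold higher and 30 (21.1%) 2-fold lower in NSC than in D0 cells, where 42.9% and 18.7% of all genes compared were so. Of the 166 genes that fell, 62 (37.3%) were higher and 48 (28.9%) lower in NSC than in D0 cells. The median NSC minus D0 difference was 0.90 for genes that rose and -0.07 for genes that fell, against 0.67 over all genes compared.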

How the data were processed

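RNA-seq was deposited as 1 table of estimated counts per gene symbol, with 1 column for each of 9 libraries; the authors' counts are fractional and sum to between 20104940 and 36751356 per library. Per the submitters' processing notes, kallisto 0.43.1 was among the tools used. Annotation and strand setting: not given in the sources used here. The other 4 samples, of ATAC-seq, were not used here.

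CPM were computed from column totals, with Python 3.11.15, numpy 2.4.6 and pandas 2.3.3. Estimated counts were rounded to whole numbers for the exact intervals (scipy 1.17.1). CPM takes no account of transcript length, so sums over markers weigh long transcripts more and levels of single genes were not ranked against each other. Differences of log2(CPM + 1) understate changes of low genes. Calls needed 5 CPM in either library and a difference of 1. The unit had been assumed to be TPM at first, and the thresholds were applied to CPM unchanged. The arithmetic was tested on simulated data.

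Alternatives changed the pseudocount, the floor, the fold and the scaling (TMM from edgeR 4.0.16, median ratio size factors, and totals without the most abundant genes). No replicates existed, so none could be left out and edgeR's count test was not run.

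The members, the 54 gene lists, 9 further lists and the promoter motifs were chosen with earlier results of these data known. Named genes were the 10 highest and 10 lowest differences at 20 CPM or more, up to 5 called members and the first 3 members of each list, the study's factors and genes called in opposite directions in the 2 fractions; the remaining genes were chosen after their values were seen. Gene positions and promoters came from RefSeq tables of GRCm38.p6, matched by symbol for 26237 of 30332 symbols. Some genes are not reported here.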

Additional observations from a re-analysis of the deposited data

Results flagged for a closer look

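Mex3d, which encodes an RNA-binding protein with KH domains, moved in opposite directions in the sorted fractions. In GFP-positive cells it had 22.8 CPM at D8 and 1.08 CPM at D4, a 20.9-fold higher level (15.0 to 29.8) and a difference of 3.51 on the log2(CPM + 1) scale. In GFP-negative cells it had 3.72 CPM at D8 and 13.7 CPM at D4, a difference of -1.64. The gap between the differences was 5.15. With 1 library a side this gap was not tested. Mex3d stood at 1.57, 11.3 and 9.27 CPM at D0, D1 and D2, at 9.13 CPM in NSC and at 59.5 CPM in GF.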

How the results depend on the processing

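With 1 library a group, only counting error is known. Each of the 3 other scalings moved the differences upward, so only genes that fell could lose the call. The median over all genes compared went from -0.09 to -0.003 with median ratio size factors. All 142 genes that rose thus stayed 2-fold higher, which is no check on them. Of the 166 that fell, 124 stayed lower with median ratio size factors, 138 with TMM and 154 with totals without the most abundant genes. The interferon count dropped to 3 with median ratio size factors. A pseudocount of 5 CPM gave 86 genes higher, 65 lower and 1 interferon gene, and a floor of 20 CPM gave 87, 77 and 1. At 4-fold the counts were 16 and 8, with 3 ATF4 genes and 0 interferon genes. The ATF4 count was between 16 and 22 under the other alternatives. The skeletal muscle list, with Des as the 1 gene compared, turned to a median of 0.74 at a floor of 1 CPM, where more genes entered. The median also changed sign at that floor for 5 other lists, among them hedgehog (0.34 and -0.14 at the floor), radial glia and astrocyte (0.20 and -0.08) and BMP targets (0.24 and -0.01). Of the 54 list medians, 10 changed sign with median ratio size factors, 7 with TMM and 3 with the third scaling, none of them over 0.08 in size before; of these, TGF-beta targets moved furthest, with -0.04, and 0.10 with median ratio size factors. The causes were not tested. No paired analysis was possible because each group holds 1 library.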

Other observations

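Genes called in the same direction, with at most 200 kb from one to the next, formed 16 runs in GFP-positive cells at D8 against D4. Genes that were not called may lie between them. Whether 16 is more than the number of called genes alone would give was not tested. The longest were Prl2c3, Prl2c2 and Prl2c5 on chromosome 13 and 3 Clca genes on chromosome 3. Another run, on chromosome 9, held Mmp13, collagenase 3, with 209 CPM at D8 and 80.9 CPM at D4, and Mmp12, macrophage elastase, with 140 and 68.1 CPM. Mmp13 in GFP-negative cells had 1245 CPM at D8 and 440 CPM at D4, whereas Mmp12 there had 11.7 and 15.1 CPM.

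Further single genes also moved in GFP-positive cells. Sema3a, a repulsive axon guidance cue, had 21.6 CPM at D8 and 4.75 CPM at D4, a 4.56-fold higher level (3.83 to 5.45). Tgfa, a ligand of the EGF receptor, had 53.4 CPM at D8 and 23.3 CPM at D4. Qprt, an enzyme of NAD synthesis from tryptophan, had 28.6 CPM at D8 and 4.78 CPM at D4, a 6.01-fold higher level (5.08 to 7.14). Olr1, a receptor of oxidised lipoprotein, fell, with 7.22 CPM at D8 and 29.8 CPM at D4. Hdac9, a class II histone deacetylase, had 1.63 CPM at D8 and 7.59 CPM at D4, and it was the member of the 10 compared histone deacetylases to be called. Lpl, lipoprotein lipase, had 31.5 CPM at D8 and 78.7 CPM at D4.

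Gm6741, a predicted gene, was called lower in GFP-positive and higher in GFP-negative cells. It was at 0 counts at D8 and 6.07 CPM at D4 in GFP-positive cells, and at 12.6 CPM at D8 and 5.04 CPM at D4 in GFP-negative cells, and it was chosen after its values were seen.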
